A study of Homo sapiens with 16 samples.

Results

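A set of 10 genes of T cell activation was followed in Jurkat E6-1, a human T cell line that is established and a single clone. The set held the NFAT transcription factor genes NFATC1, NFATC2 and NFATC3, the calcineurin inhibitor RCAN1 and the costimulatory genes CD40LG and CD28. It also held the inhibitory receptor LAG3, the early activation marker CD69, and the scavenger receptor family members CD5 and CD6. The 10 genes were taken by symbol, and all of them were found among 60662 gene identifiers and passed the filter that left 14092 genes for testing. RNA-seq was done on 8 libraries of wild-type cells without treatment at 0 h, called control below, and 8 libraries of wild-type cells that had been moved from growth medium into phosphate-buffered saline with 10 µM hydrogen peroxide and harvested 4 h later, called peroxide. Cells kept in saline for the same time without peroxide were not analysed here, so time, medium and peroxide cannot be told apart. The names of the deposited tables place 4 libraries of each group in each of 2 batches, and the sources used here do not say what a batch was. No stimulus of the T cell receptor is named in the labels of either group.

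When a T cell receptor is engaged, calcium enters the cell, calmodulin activates the phosphatase calcineurin, and calcineurin removes phosphates from NFAT proteins, which then move into the nucleus and act with AP-1 factors on target genes. RCAN1 binds and inhibits calcineurin and is itself an NFAT target, which makes it a feedback gene. CD28 amplifies the receptor's signal, CD40LG carries help to B cells, LAG3 and CD5 restrain signalling, CD6 is a CD5 relative that modulates adhesion and signalling, and CD69 is among the first surface proteins to appear on an activated T cell.

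Libraries held 5556553 to 15720881 reads in genes. Reads not aligned uniquely made up 30.2% to 47.2% of counted reads in controls and 33.3% to 45.8% in peroxide libraries. Levels are given as CPM, the count scaled to the library's reads in genes with TMM factors. Calls were made at an adjusted p under 0.05 with edgeR's quasi-likelihood test, in a model of batch plus group. Of the 11 T cell markers looked at, 11 were tested, and their summed level was 2668 to 3567 CPM in controls and 2694 to 3560 CPM in peroxide libraries. CD3G, a chain of the receptor complex, and the adhesion receptor CD2 were called lower, as were 24.3% of all tested genes, and the other 9 did not pass. Among markers of other blood cells, CD79A of the B lineage and NKG7 of cytotoxic cells were tested and did not pass. The summed level of the 5 B cell markers was 29.9 to 50.5 CPM in controls and 31.5 to 55.7 CPM after peroxide, and that of the 5 NK markers 4.88 to 13.8 and 3.85 to 12.6 CPM. The 4 erythroid markers, none of them tested, summed to 0 to 0.122 CPM in controls and, without overlap, to 0.209 to 0.800 CPM after peroxide, with HBB at 0 reads and HBA1 at 3 control and 23 peroxide reads. The NK marker NCR1 had 0 reads and KLRD1 had 5 and 14. Their part in the results below was not tested.

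RefSeq promoter entries, each 250 bases before to 50 bases after a transcription start, were found for 5 of the 10 genes, with 12 entries in all. The 3 NFAT genes and RCAN1 are shown because the former fell together and the latter, their feedback gene, did not pass the test. Capitals mark GGAAA, the core that NFAT proteins bind, on either strand (TTTCC when it lies on the other one), and TGANTCA, an AP-1 motif. For genes with several entries, the one shown has the most capitals, or the first among equals.
NFATC1, RefSeq, GRCh38.p14, chr18:79395680-79395979, plus strand: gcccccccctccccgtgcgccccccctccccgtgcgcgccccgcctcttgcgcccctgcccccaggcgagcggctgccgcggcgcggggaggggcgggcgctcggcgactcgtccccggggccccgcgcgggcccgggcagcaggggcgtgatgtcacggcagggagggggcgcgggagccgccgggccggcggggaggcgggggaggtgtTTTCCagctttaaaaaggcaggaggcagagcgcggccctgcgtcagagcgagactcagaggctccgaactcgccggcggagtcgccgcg
NFATC2, RefSeq, GRCh38.p14, chr20:51562790-51563089, minus strand: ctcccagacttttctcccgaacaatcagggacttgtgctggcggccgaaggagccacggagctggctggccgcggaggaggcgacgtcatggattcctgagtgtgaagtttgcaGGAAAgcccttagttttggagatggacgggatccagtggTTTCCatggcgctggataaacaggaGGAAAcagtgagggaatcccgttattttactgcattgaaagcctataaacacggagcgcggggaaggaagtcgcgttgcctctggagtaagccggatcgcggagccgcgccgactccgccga
NFATC3, RefSeq, GRCh38.p14, chr16:68085120-68085419, plus strand: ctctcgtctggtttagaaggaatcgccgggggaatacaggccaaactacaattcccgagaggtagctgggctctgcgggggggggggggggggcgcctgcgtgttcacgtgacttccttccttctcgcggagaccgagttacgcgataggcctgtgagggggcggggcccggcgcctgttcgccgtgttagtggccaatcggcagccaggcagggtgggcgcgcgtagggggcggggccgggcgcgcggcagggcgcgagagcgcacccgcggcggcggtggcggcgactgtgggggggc
RCAN1, RefSeq, GRCh38.p14, chr21:34526773-34527072, minus strand: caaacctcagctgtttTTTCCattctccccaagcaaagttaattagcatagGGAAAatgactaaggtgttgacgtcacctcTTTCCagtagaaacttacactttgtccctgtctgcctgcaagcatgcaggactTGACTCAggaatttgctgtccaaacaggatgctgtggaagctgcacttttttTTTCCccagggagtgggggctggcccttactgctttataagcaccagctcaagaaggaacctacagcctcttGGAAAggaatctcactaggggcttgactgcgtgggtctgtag
The NFATC1 window held 1 GGAAA, the NFATC2 window 3 and the NFATC3 window 0, and none of these 3 held TGANTCA. The RCAN1 window held 5 GGAAA and 1 TGANTCA. It is 1 of 6 RCAN1 entries, of which 3 held neither motif. The other NFATC2 entry held neither motif, and nor did the single CD28 entry. Of 35116 promoters of the same length, 61.2% held at least 1 GGAAA, 9.94% held 3 or more, 0.740% held 5 or more, and 7.71% held TGANTCA. These shares are of single promoters. The RCAN1 and NFATC2 windows were picked as the richest of their gene's entries, so the shares do not say how rare they are. A match is a description of these letters, and counts per gene do not say which start was used.

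The 3 NFAT genes were lower after peroxide in both batches, by similar amounts, whereas RCAN1 did not pass the test. NFATC1 (ENSG00000131196.17) was at 46.0, 42.8, 55.0 and 54.3 CPM in the controls of batch 1 and at 58.1, 62.6, 65.1 and 57.5 CPM in those of batch 2. After peroxide it was at 31.0, 40.0, 37.2 and 35.6 CPM in batch 1 and at 49.4, 46.4, 46.6 and 47.3 CPM in batch 2. Within each batch every peroxide library lay below every control, and over both batches the groups overlapped, with the batch 2 libraries of both groups higher. The log2 difference, peroxide minus control, was -0.41 ± 0.07 (SE, adjusted p = 2.96e-05, 8 libraries a group), which is 1.33-fold lower.

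NFATC2 (ENSG00000101096.20) had 44.0, 49.9, 53.4 and 54.3 CPM in batch 1 controls and 54.2, 61.3, 60.3 and 52.7 CPM in batch 2 controls. Its peroxide libraries had 36.7, 41.6, 37.0 and 37.2 CPM in batch 1 and 43.6, 47.4, 42.8 and 42.0 CPM in batch 2. The groups again did not overlap within a batch, and the log2 difference was -0.39 ± 0.06 (SE, adjusted p = 1.85e-05). NFATC3 (ENSG00000072736.19) stood at 114, 117, 97.3 and 104 CPM in batch 1 controls and at 108, 99.1, 94.4 and 101 CPM in batch 2 controls. After peroxide its levels were 97.1, 77.8, 70.3 and 72.1 CPM in batch 1 and 82.1, 71.5, 79.3 and 64.9 CPM in batch 2. Peroxide library 1, at 97.1 CPM, was the only one within reach of the controls, just under the lowest of its batch. The log2 difference of NFATC3 was -0.44 ± 0.07 (SE, adjusted p = 2.41e-05).

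NFATC1, NFATC2 and NFATC3 were among 8.74% of all tested genes whose peroxide libraries lay below the controls without overlap in each batch. All 3 kept their call under the 26 alternatives tried, with log2 differences of -0.47 to -0.36 for NFATC1, -0.45 to -0.38 for NFATC2 and -0.50 to -0.41 for NFATC3. The differences in batch 1 and batch 2 were -0.47 and -0.36 for NFATC1, -0.40 and -0.38 for NFATC2, and -0.45 and -0.43 for NFATC3. The remaining family members did not pass: NFATC4 had a log2 difference of -0.04 ± 0.10 and NFAT5, the family member that does not depend on calcineurin and answers to osmotic stress, one of 0.08 ± 0.10 (SE, adjusted p = 0.793 and 0.546).

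RCAN1 (ENSG00000159200.18) ranged from 55.4 to 92.9 CPM in controls, with a median of 63.7 CPM, and from 50.01 to 94.4 CPM after peroxide, with a median of 62.3 CPM. The libraries of the groups were interleaved in both batches. Its log2 difference was -0.04 ± 0.11 (SE, adjusted p = 0.784), with a 95% interval of -0.28 to 0.19.

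**Figure D1:**
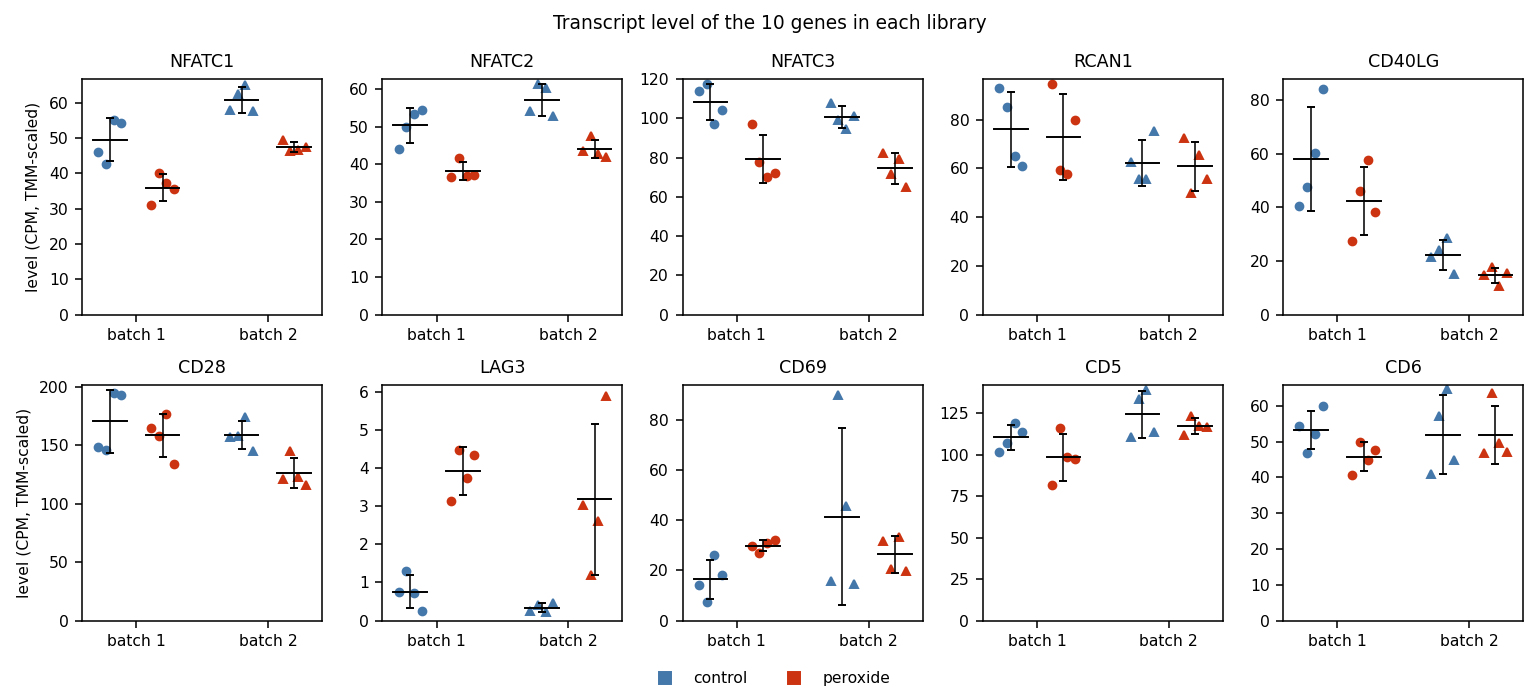
Level of each of the 10 genes in CPM (y axis, from 0) in every library, by batch (x axis), with controls in blue and peroxide libraries in red. Circles are batch 1 and triangles batch 2, and black bars are the mean ± SD of 4 libraries. NFATC1, NFATC2 and NFATC3 are lower after peroxide without overlap within either batch, LAG3 is higher without overlap within either batch, and a control of batch 2 stands at 89.8 CPM for CD69.

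The costimulatory genes CD40LG and CD28 were lower after peroxide by differing amounts, and neither separated the groups. CD40LG (ENSG00000102245.8), the CD40 ligand of helper T cells, had 40.5, 47.5, 60.2 and 84.3 CPM in batch 1 controls and 27.7, 46.1, 57.6 and 38.4 CPM in batch 1 peroxide libraries. In batch 2 it had 21.6, 24.1, 28.5 and 15.1 CPM in controls and 14.7, 17.6, 10.7 and 15.7 CPM after peroxide. Every batch 2 control lay below every batch 1 control, so the gap between batches was larger than that between groups. The log2 difference with batch as a term was -0.53 ± 0.16 (SE, adjusted p = 0.00966). Without the batch term the value was -0.50 and did not pass (adjusted p = 0.325), and in batch 1 alone it was -0.46 (adjusted p = 0.114).

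CD28 (ENSG00000178562.18) had 148, 146, 195 and 193 CPM in batch 1 controls and 165, 158, 177 and 134 CPM in batch 1 peroxide libraries, which overlapped. In batch 2 the controls had 157, 158, 174 and 145 CPM and the peroxide libraries 121, 145, 123 and 116 CPM. There, peroxide library 6 and control 8, both near 145 CPM, were the only ones to touch. The log2 difference was -0.22 ± 0.08 (SE, adjusted p = 0.0265). It was -0.11 in batch 1 and -0.33 in batch 2, a difference between batches that did not pass (interaction adjusted p = 0.430). The call was lost in turn without control 3, 4 or 7 or peroxide library 4, 5, 7 or 8 (adjusted p = 0.0511 to 0.0559).

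LAG3 was the only 1 of the 10 genes called higher. LAG3 (ENSG00000089692.9), an inhibitory receptor that binds MHC class II, had 0.748, 1.31, 0.730 and 0.245 CPM in batch 1 controls and 0.250, 0.416, 0.236 and 0.458 CPM in batch 2 controls. After peroxide it had 3.13, 4.48, 3.74 and 4.35 CPM in batch 1 and 3.03, 1.20, 2.61 and 5.90 CPM in batch 2. These levels rest on a total of 42 control reads and 237 peroxide reads. The groups were apart within each batch, as were 10.5% of tested genes in that direction, and overlapped only through control 2 (1.31 CPM) and peroxide library 6 (1.20 CPM). The log2 difference was 2.75 ± 0.31 (SE, adjusted p = 2.30e-07), with a 95% interval of 2.11 to 3.39, and it was 2.43 in batch 1 and 3.14 in batch 2. Only 1 control but all 8 peroxide libraries reached the filter's level of 1.14 CPM, so a gene like this had to differ to be tested at all. It was also called without the filter, and over the 26 alternatives the log2 difference stayed between 2.43 and 3.15.

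The nearest protein-coding genes to LAG3 are PTMS, which encodes parathymosin, and the CD4 coreceptor gene, and a pseudogene that lies next to it had 0 reads. PTMS had 64.1 ± 16.01 CPM in controls and 64.1 ± 11.5 CPM after peroxide (SD, n = 8), and CD4 had 20.2 ± 5.52 and 19.7 ± 6.44 CPM. Neither passed, with log2 differences of 0.03 ± 0.12 for PTMS and -0.04 ± 0.19 for CD4 (SE, adjusted p = 0.865 and 0.864). The myeloid markers CD14 and ITGAM also rose, from 0.267 to 3.15 CPM and from 0.161 to 4.32 CPM. Of the 5 myeloid markers these 2 were tested and called, where 24.1% of all tested genes were called higher. The summed level of all 5 was 0.500 to 1.16 CPM in controls and 4.46 to 15.6 CPM after peroxide. Only peroxide libraries reached the filter's level for CD14 and ITGAM, 8 of 8 for each, so both were tested through the group where they were high. Of the untested 3, LYZ had 3 control and 8 peroxide reads in total, CSF1R 5 and 22, and CD68 18 and 73. The part of other cells in the LAG3 result was not tested.

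**Figure D2:**
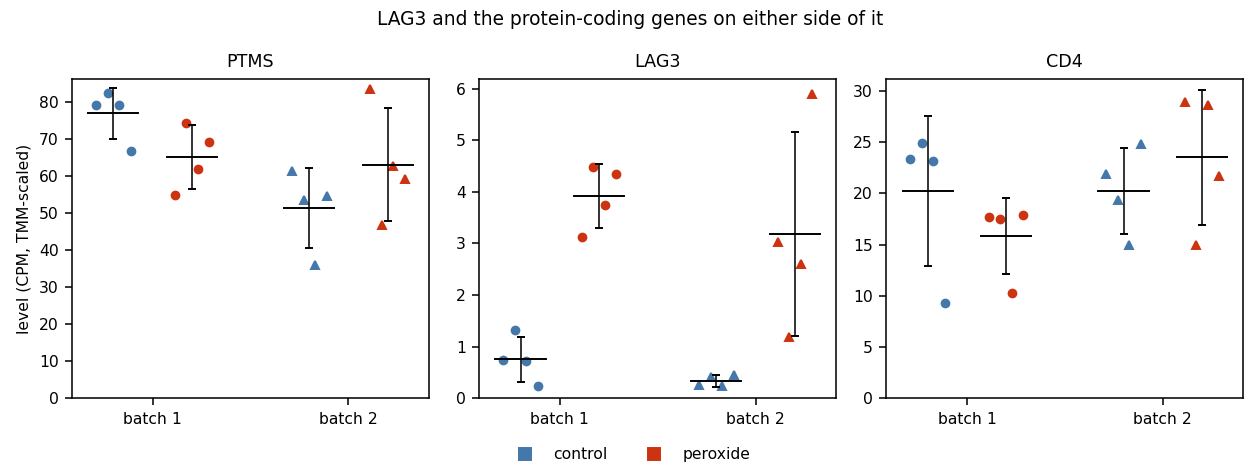
Level in CPM (y axes, each from 0 and on its own scale) of PTMS, LAG3 and CD4 in every library, by batch (x axis), controls in blue and peroxide libraries in red, with mean ± SD of 4 libraries in black. LAG3 is higher after peroxide within both batches, while PTMS and CD4, the protein-coding genes on either side, overlap between groups.

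CD69 did not pass the test over both batches and varied widely among single controls. CD69 (ENSG00000110848.8), a lectin-like receptor that keeps activated T cells in tissue, had 14.3, 7.51, 26.1 and 18.4 CPM in batch 1 controls and 29.6, 27.0, 31.0 and 32.04 CPM in batch 1 peroxide libraries. In batch 2 it had 15.8, 89.8, 45.7 and 14.5 CPM in controls and 31.9, 20.5, 33.5 and 19.6 CPM after peroxide. In batch 1 all peroxide libraries lay above all controls, if narrowly, whereas in batch 2 controls 6 and 7 stood above every peroxide library and controls 5 and 8 below every one. The log2 difference over both batches was 0.02 ± 0.33 (SE, adjusted p = 0.975), with a 95% interval of -0.68 to 0.71. It was 0.81 ± 0.43 in batch 1 and -0.69 ± 0.40 in batch 2 (SE), and their difference of -1.50 ± 0.59 had an unadjusted p of 0.0183 and an adjusted p of 0.139 in edgeR's interaction test. Batch 1 fitted alone called CD69 higher, at 0.81 (adjusted p = 0.0121). Without control 6 the pooled log2 difference became 0.43, which did not pass (adjusted p = 0.153).

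The spread of CD69 among controls was wide for a gene of these libraries. The highest control was 12.0-fold above the lowest, against 1.70-fold among peroxide libraries. Within batch 2 controls the SD of its log2 CPM was 1.26, the 99.9th percentile of tested genes, whose median was 0.130. Within batch 1 controls the SD was 0.746, the 98.7th percentile. After peroxide the SD was 0.105 in batch 1, the 18.9th percentile, and 0.404 in batch 2, the 90.7th. The SD of LAG3 stood at the 98.5th percentile in batch 1 controls, close to that of CD69, at the 85.1st in batch 2 controls and at the 99.6th in batch 2 peroxide libraries. In batch 1 controls LAG3 had only 2 to 9 reads a library, against 40 to 286 for CD69. The percentiles were not matched for level, so the 2 genes cannot be compared by them. The SD of CD40LG stood at the 92.1st and 91.7th percentiles in controls of batch 1 and 2, while those of the 3 NFAT genes lay between the 24.8th and 56.8th.

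Controls 6 and 7 also had the most reads of their batch, and control 2, lowest for CD69, had the fewest of all. Over the 8 controls the log2 level of CD69 and the log2 number of reads in genes gave a Pearson r of 0.847 (exact permutation, two-sided p = 0.00694, adjusted over 20 relations 0.139) and a Spearman rho of 0.619 (p = 0.115, adjusted 0.649). Without controls 2 and 6, the farthest from the median in reads, r was 0.512 over the remaining 6. A batch holds 4 controls, too few for a value of its own. Libraries were permuted across both batches, so these p-values do not separate reads from batch. The 20 relations were the 10 genes in each group, and 0 passed by r or rho, with CD69 in controls the only 1 at an unadjusted p under 0.05. Across the 8 peroxide libraries the r of CD69 was 0.332.

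Genes whose pattern was most like that of CD69 over all 16 libraries, among 10988 genes with a mean of at least 5 CPM, were TSPAN4, a tetraspanin, the immediate early transcription factor genes EGR1 and EGR2, GRAMD1B, a sterol transfer protein gene, and SNX14, a sorting nexin gene. Their Pearson r of log2 CPM was 0.823, 0.799, 0.786, 0.798 and 0.791, in that order of naming, and 0.516 to 0.768 without controls 2 and 6. The likeness came from the controls, in which r was 0.879 to 0.962, against -0.313 to 0.190 in the peroxide libraries. Of these genes only EGR1 was called higher after peroxide, at a log2 difference of 1.21 (adjusted p = 0.0336), unlike CD69. EGR1 had 59.2, 13.3, 182 and 146 CPM in batch 1 controls and 75.8, 404, 313 and 34.7 CPM in batch 2 controls, so the same controls 6 and 7 were highest and control 2 lowest. EGR2 had 21.2 and 13.0 CPM in controls 6 and 7 and 0.343 to 2.08 CPM in the other 6 controls. Over the 8 controls alone the closest genes included SIRPG, TSPAN4, RNF24 and TESMIN (r of 0.959 to 0.968). The levels of SIRPG, a receptor for CD47 on T cells, moved only from 25.9 CPM in control 2 to 41.3 CPM in control 6. These are descriptions without a test, and all points share the depth and batch of their libraries.

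**Figure D3:**
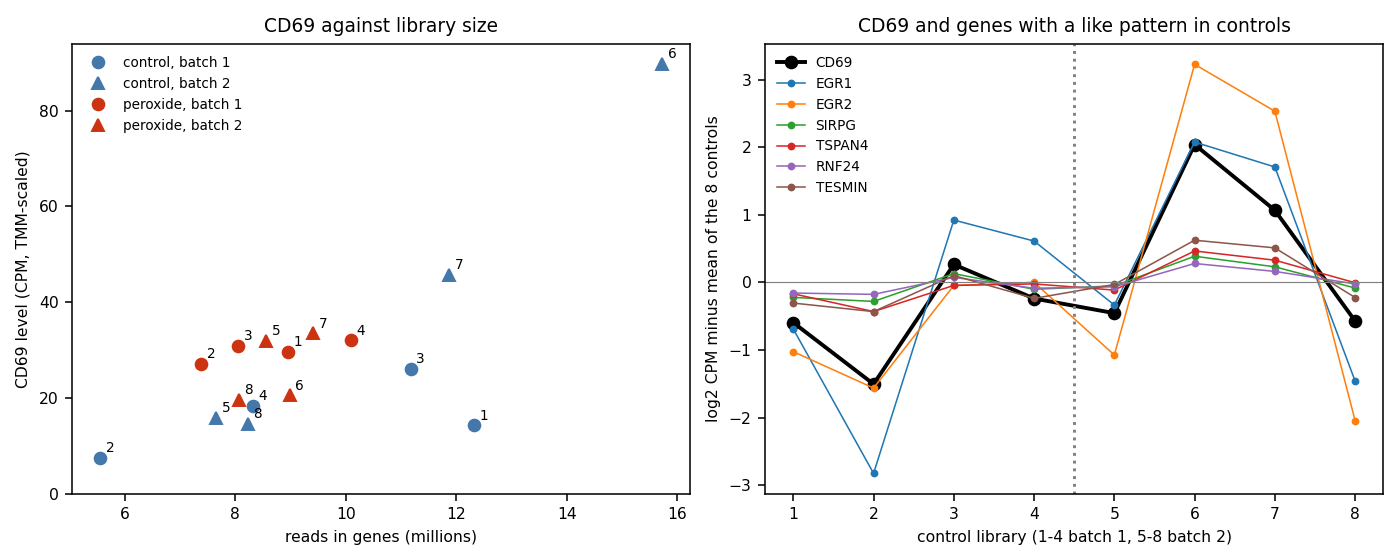
Left, CD69 level in CPM (y axis) against the library's reads in genes (x axis) for all 16 libraries, numbered by replicate, with colours for group and shapes for batch. Right, log2 CPM minus the mean of the 8 controls (y axis) in each control (x axis) for CD69 and the genes most like it: controls 6 and 7 are highest and control 2 lowest for CD69 and EGR1.

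For LAG3 the genes most alike over the 16 libraries were CHCHD7, OAT, KATNA1, OAZ1 and BCL2L11, with r of 0.954 to 0.968. OAT encodes ornithine aminotransferase, OAZ1 an inhibitor of polyamine synthesis and BCL2L11 the death-promoting protein BIM. All 5 rose after peroxide, by log2 differences of 0.43 for KATNA1, 0.59 for OAZ1, 1.12 for CHCHD7, 1.33 for BCL2L11 and 1.57 for OAT, so these values of r include the difference between the groups. Within the controls r was 0.638 to 0.923 and within the peroxide libraries 0.709 to 0.876. The genes were picked for their r over these same libraries, so the values within a group are not independent of that choice. LAG3 had only 2 to 9 reads in a control. These too are descriptions without a test.

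CD5 and CD6, neighbouring genes of 1 receptor family, did not pass the test. CD5 (ENSG00000110448.11) ranged from 102 to 139 CPM in controls, with a median of 114 CPM, and from 81.8 to 124 CPM after peroxide, with a median of 114 CPM. CD6 (ENSG00000013725.14) ranged from 41.0 to 64.7 CPM in controls, with a median of 53.3 CPM, and from 40.5 to 63.7 CPM after peroxide, with a median of 47.4 CPM. The ranges nearly coincided for CD6, while 3 peroxide libraries, at 81.8, 97.4 and 98.3 CPM, lay below the lowest CD5 control. The log2 differences were -0.12 ± 0.07 for CD5 (SE, adjusted p = 0.139, 95% interval -0.27 to 0.02) and -0.11 ± 0.09 for CD6 (SE, adjusted p = 0.333, 95% interval -0.31 to 0.08). With library sizes taken as total counts, CD5 was called at -0.19 (adjusted p = 0.0338), and that scaling moved the median of all genes from -0.01 to -0.08. Without peroxide library 2, CD5 was also called (adjusted p = 0.0486).

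Over the 10 genes, 1 was called higher and 5 were called lower, and 4 did not pass, where 24.1% of the 14092 tested genes were called higher and 24.3% lower. Their median log2 difference was -0.17, against -0.01 for all tested genes. Over all 8 against 8 libraries, 0 of the 10 genes separated the groups, compared with 6.76% of tested genes with all peroxide libraries above and 4.49% with all below. In edgeR's interaction test of batch and group 0 of the 10 passed, and CD69 alone had an unadjusted p under 0.05. DESeq2's interaction also called 0 of them, but LAG3 had no result in it. The interaction was called for 4.88% of tested genes.

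**Figure D4:**
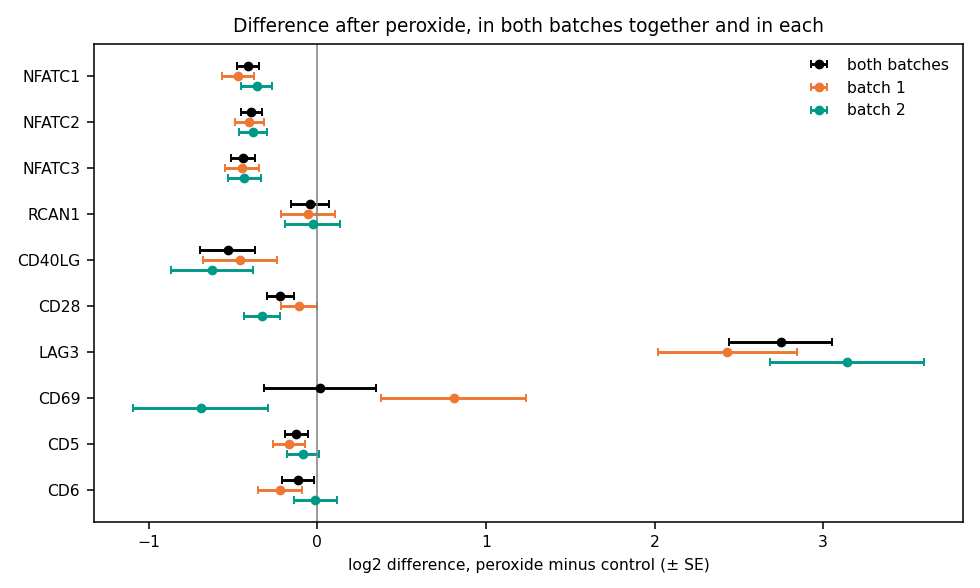
Log2 difference between peroxide and control (x axis) for each of the 10 genes (y axis), as estimate ± SE in both batches together (black), batch 1 (orange) and batch 2 (green). The 3 NFAT genes lie close to -0.4 in both batches, LAG3 lies above 2.4 in both, and CD69 lies on opposite sides of 0.

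Untreated cells differed between batches for 3 of the 10 genes, in a comparison added after the values had been seen. Among controls, batch 2 was lower than batch 1 for CD40LG, by a log2 difference of -1.36 ± 0.23 (SE, adjusted p = 7.1e-05), and higher for CD69, at 1.32 ± 0.41 (adjusted p = 0.0139), and NFATC1, at 0.29 ± 0.09 (adjusted p = 0.0126). The other 7 genes did not pass. Of all tested genes, 20.5% were lower and 22.1% higher in batch 2 controls. For CD69, controls 5 and 8 of batch 2, at 15.8 and 14.5 CPM, lay within the range of the batch 1 controls, and controls 6 and 7 lay above it.

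Of the genes next to the NFAT genes, ATP9B, ATP9A and DUS2 had values of a size similar to those of the NFAT genes, and CTDP1 and PLA2G15 did not. ATP9B, a phospholipid flippase gene beside NFATC1, fell by 0.44 on the log2 scale (SE 0.07, adjusted p = 1.26e-05), and CTDP1 on its other side fell by 0.22 (SE 0.06, adjusted p = 0.00281). ATP9A, the ATP9B paralog beside NFATC2, fell by 0.55 (SE 0.08, adjusted p = 4.98e-06). DUS2, a tRNA-modifying enzyme gene beside NFATC3, fell by 0.45 (SE 0.07, adjusted p = 2.82e-05), whereas PLA2G15 on the other side did not pass at 0.10 (adjusted p = 0.341). The neighbours of CD40LG, LINC00892 and ARHGEF6, fell by 0.71 and 0.23 (SE 0.27 and 0.05, adjusted p = 0.0336 and 0.000907). VPS37C, beside CD5, was also called lower, at -0.29 (SE 0.08, adjusted p = 0.00667), though CD5 itself did not pass. Of all tested genes, 24.3% were called lower, and a link between neighbours was not tested. The sources used here do not say whether counting used strand, so reads from overlapping transcripts cannot be told apart.

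Of 25 listed regulators of calcineurin and NFAT 22 were tested, and 4 were called higher and 4 lower, where 24.1% of all tested genes were called higher and 24.3% lower. Their median log2 difference was 0.01, against -0.01 for all tested genes. CALM2, a calmodulin gene, rose by a log2 difference of 0.61 ± 0.08 (SE, adjusted p = 2.84e-06), while CALM3, which encodes the same protein, fell by 0.27 ± 0.08 (adjusted p = 0.00708). The CALM3 difference was -0.51 in batch 1 and -0.03 in batch 2 (interaction adjusted p = 0.0199). The peptidyl-prolyl isomerase PPIA, the target of cyclosporin, rose by 0.46 ± 0.08 (adjusted p = 6.83e-05) and GSK3A, a kinase that returns NFAT to the cytoplasm, by 0.22 ± 0.07 (adjusted p = 0.0119). The GSK3A difference was 0.07 ± 0.09 in batch 1 and 0.37 ± 0.09 in batch 2 (interaction adjusted p = 0.163). Its paralog GSK3B did not pass at 0.01 ± 0.07 (adjusted p = 0.952). The PPIA call was lost without the batch term (adjusted p = 0.129). The calcineurin inhibitor genes CABIN1 and RCAN3 fell by 0.38 ± 0.06 and 0.40 ± 0.09 (adjusted p = 1.21e-05 and 0.000934), and the NFAT kinase gene DYRK2 fell by 0.34 ± 0.10 (adjusted p = 0.00687). The catalytic and regulatory subunit genes PPP3CA, PPP3CB, PPP3CC and PPP3R1 had log2 differences of -0.08, -0.10, 0.07 and 0.15 and did not pass.

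Among 20 cytokine and transcription factor genes that NFAT is known to induce in activated T cells, 8 were tested, and 4 were called higher and 1 lower, beside 24.1% and 24.3% of all tested genes. The orphan nuclear receptor genes NR4A3 and NR4A1 rose by log2 differences of 4.24 ± 0.21 and 2.82 ± 0.31 (SE, adjusted p = 1.01e-12 and 2.06e-07), and the type 2 cytokine gene IL13 by 4.23 ± 0.29 (adjusted p = 1.29e-10). IL13 went from 0.343 ± 0.287 to 6.74 ± 2.71 CPM and NR4A3 from 0.798 ± 0.296 to 16.2 ± 4.38 CPM (SD, n = 8), and 0 and 2 controls reached the filter's level, so both were tested because of the peroxide libraries. The NR4A1 difference was 3.58 ± 0.43 in batch 1 and 2.23 ± 0.37 in batch 2 (SE, interaction adjusted p = 0.170). EGR3 rose by 2.32 ± 0.62 over both batches (adjusted p = 0.00371). The difference was 5.18 ± 0.86 in batch 1 and 0.92 ± 0.59 in batch 2 (SE, interaction adjusted p = 0.0304). In batch 2 its groups overlapped, with a control at 27.2 CPM. Of the 8 controls, 4 reached the filter's level for EGR3. BATF, an AP-1 family partner gene, fell by 0.50 ± 0.12 (adjusted p = 0.00181). The median of the 8 was 1.60, which is that of genes that had passed the filter and not of the list. The other 12 were too scarce to test, among them IL2 (18 control and 6 peroxide reads in total), IFNG (0 and 2) and CSF2 (0 and 0). All IL2 reads lay in batch 2. IRF4, also among the 12, had 5 control and 46 peroxide reads.

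Of 24 other costimulatory, inhibitory and activation receptors of T cells 13 were tested, and 1 was called higher and 2 lower, beside 24.1% and 24.3% of all tested genes, with a median of -0.05. CD160, a receptor for HVEM, rose from 0.995 ± 0.308 to 2.65 ± 0.743 CPM (SD, n = 8; log2 difference 1.42 ± 0.20, adjusted p = 5.46e-06), and 3 controls reached the filter's level. CD2 fell by 0.25 ± 0.07 (adjusted p = 0.00539) and CD226 by 0.28 ± 0.11 (adjusted p = 0.0441), a call that 13 of 26 alternatives kept. The CD2 call was lost without the batch term and in batch 2 alone (adjusted p = 0.145 and 0.141). KLRG1 did not pass at -0.34 ± 0.14 (adjusted p = 0.0560). CTLA4, the inhibitory partner of CD28 and its neighbour in the genome, had 1 read over the controls and 12 over the peroxide libraries, and TIGIT had 0 reads. Among others too scarce to test, BTLA had 13 control and 56 peroxide reads in total, TNFRSF18 3 and 25, and ICOS 72 and 54.

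Of 23 listed ligands and partners 15 were tested, and 0 were called higher and 6 lower, beside 24.1% and 24.3% of all tested genes, with a median of -0.13. At an unadjusted p under 0.05, 1 was higher and 7 were lower, and DESeq2 and limma-voom also called 0 higher. The count higher was 1 in batch 1 alone, without control 6 and without peroxide library 6. PIK3R1, the regulatory subunit of the lipid kinase that CD28 recruits, fell from 226 ± 37.1 to 141 ± 20.2 CPM and the adaptor GRAP2 from 287 ± 22.7 to 213 ± 10.4 CPM (SD, n = 8), both without overlap between the groups, as were 4.49% of tested genes in that direction. Their log2 differences were -0.66 ± 0.08 and -0.43 ± 0.05 (SE, adjusted p = 5.73e-07 and 5.76e-07). CBL, a ubiquitin ligase gene, fell by 0.46 ± 0.06 (adjusted p = 1.62e-06), and UBASH3A and GRB2 by 0.34 ± 0.08 and 0.17 ± 0.05 (adjusted p = 0.00114 and 0.00853). CD40, the receptor of CD40LG, had 2 reads over the controls and 1 over the peroxide libraries. CD80 and CD86, the ligands of CD28, had 7 and 15 control reads and 8 and 18 peroxide reads in total. In bulk samples, fewer cells with a transcript and less of it per cell cannot be told apart.

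**Figure D5:**
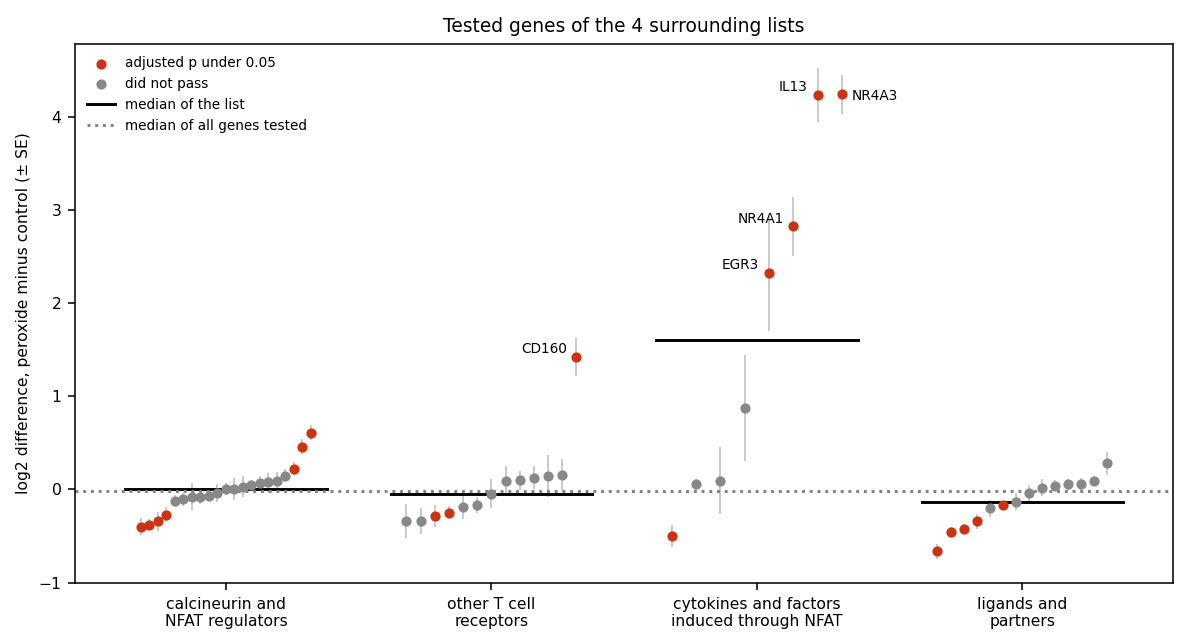
Log2 difference between peroxide and control (y axis, ± SE) of the tested genes of 4 lists that are reported here (x axis), red where the adjusted p was under 0.05 and grey where the gene did not pass, with the median of all tested genes of the list as a black bar and the median of all tested genes as a dotted line. CD160, NR4A3, IL13, NR4A1 and EGR3 stand above the rest, and the ligands and partners include 0 genes called higher.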

How the data were processed

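RNA of 16 libraries was sequenced, and the authors deposited 1 table of whole-number read counts per gene for each library, not normalized. The submitters' processing notes name hg19, STAR 2.7.1a and HTSeq 0.6.1. No genome of that build was used here, so gene coordinates of the files are not printed. How HTSeq treated strand and overlaps is not stated in these sources. The labels call the libraries biological replicates and do not say what was separate, so p-values measure only the spread between these libraries.

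Identifiers were matched to symbols for 60357 of 60662 (99.5%). The 5 rows of each table that name no gene held 43.5% to 57.6% of counted reads and were kept out. Genes were filtered with edgeR 4.0.16 (filterByExpr on group; R 4.3.3), scaled with TMM factors (0.933 to 1.08) and tested with its quasi-likelihood method under a model of batch plus group. Benjamini-Hochberg adjustment ran over the 14092 tested genes, which held 99.6% of reads in genes. SE is the size of the log2 difference divided by the square root of F. Likeness is Pearson's r on log2 CPM with a prior count of 2. Scripts were tested on simulated data. Pairs of libraries within a group had a chi-square per degree of freedom of 2.98 to 50.2, so all were kept.

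Alternatives were DESeq2 1.42.0, limma-voom 3.58.1, DESeq2's size factors, total counts, no filter, no batch term, the replicate number as a block, each batch alone, leaving out the 2 libraries richest in non-unique reads, and leaving out each library. Promoters came from RefSeq (GRCh38.p14), and gene neighbours from its gene order. The genes named were the 10 members, the list genes with the smallest p (up to 4 a list, mean of at least 1 CPM), the nearest genes in the annotation and the 5 most alike. Other called or scarce list genes, other family members and subunits were named after their values were seen. A few genes that the counts and the naming rule include are not reported here. The members and lists were chosen with earlier results of these data known.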

Additional observations from a re-analysis of the deposited data

Results flagged for a closer look

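The CD69 level in control 6, at 89.8 CPM, was far above the other 7 controls relative to their range, and the CD6 level in peroxide library 6, at 63.7 CPM, was far above the other 7 peroxide libraries. The 10 genes in both groups made 20 groups of 8 libraries, of which these 2 were singled out, and chance singles out about 1 in 20. Control 6 was the library with the most reads in genes, 15720881, and had the highest EGR1 level of the controls, at 404 CPM. For CD6 the remaining peroxide libraries lay between 40.5 and 50.02 CPM, and controls 6 and 7 had 57.3 and 64.7 CPM.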

How the results depend on the processing

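LAG3, NFATC1, NFATC2 and NFATC3 kept their direction and call under all 26 alternatives. CD69 changed sign, without passing, with total counts (-0.050), no filter (-0.042), no batch term (-0.074), batch 2 alone (-0.70) and without control 1 and peroxide library 5, whose share of non-unique reads was highest (-0.077). In batch 1 alone it was called at 0.81. CD5 was called with total counts (-0.19), a scaling that gave 2822 genes higher and 4375 lower, or 39.2% higher against 49.8% in the primary analysis. The calls of CD28 and CD40LG were lost without the batch term (-0.21 and -0.50) and in batch 1 alone (-0.11 and -0.46), which left 3 of the 10 genes called lower under either. Batch 1 alone called 2 higher. Without the filter 5150 of all genes were called higher, and 1 of the 10 genes, CD69, passed the interaction (-1.48). That value was close to the -1.50 of the primary analysis, and its SE was 0.17 against 0.59. The interaction value of NFATC3 became -0.061, and that of RCAN1 -0.18, without the same 2 libraries. The causes were not tested.

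Leaving out each library in turn gave log2 differences of -0.13 to 0.43 for CD69, -0.27 to -0.19 for CD28, -0.63 to -0.42 for CD40LG, 2.53 to 2.90 for LAG3, -0.44 to -0.38 for NFATC1, -0.43 to -0.38 for NFATC2, -0.50 to -0.41 for NFATC3, -0.12 to 0.0027 for RCAN1, -0.16 to -0.090 for CD5 and -0.18 to -0.07 for CD6, with 4 to 6 genes called lower. The interaction values ranged from -0.40 to 0.018 for CD40LG, -0.018 to 0.12 for NFATC2, -0.037 to 0.16 for NFATC3 and -0.067 to 0.21 for RCAN1. With the replicate number as a block (replicate block), 3313 genes were called higher and 3374 lower and no call among the 10 genes changed. The numbers share only a name: deviations of same-numbered libraries correlated from -0.15 to 0.17, and 2 of 8 controls correlated best with their own number. LAG3 levels of 2 to 9 reads in a control limit its fold change.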
